A study of Homo sapiens with 4 samples.

Results

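N6-methyladenosine (m6A) is placed on adenosines of messenger RNA by a methyltransferase complex, removed by demethylases and bound by reader proteins that act on splicing, translation and decay. In long transcripts it is known to lie mostly in the last exons and around the stop codon, and a related mark, m6Am, sits at the first transcribed base of many messages when that base is an adenosine. Antibodies used to pull down m6A also bind m6Am, so a peak at a 5′ end may hold either mark. Described here are the m6A peaks that touch both untranslated regions (UTRs) of a message, so that the listed peak runs from the 5′ UTR through the coding sequence into the 3′ UTR. A peak was taken as a member when the transcript regions listed for it, united over all its rows, held both UTR labels. No fold or p-value entered this choice, but the labels depend on where the listed peak starts and ends. There were 415 such peaks among 59388 distinct peaks, 236 of 32069 in A549/DDP and 179 of 27319 in A549.

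A549/DDP is a line of human lung adenocarcinoma cells that the labels call cisplatin-resistant, and A549 is an established line of the same cancer that the labels call cisplatin-sensitive. Both were grown in DMEM with serum and antibiotics, and the labels name neither a cisplatin treatment of the cells used nor how the resistant line was derived. Each line gave 1 immunoprecipitated library, enriched with an antibody against m6A, and 1 input library, 4 libraries in all, and each peak list was taken as made from the pair of 1 line. No read counts are listed, and the depth is therefore unknown.

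No test between the lines was made, because a line with 1 peak list offers no replicate check. Fold enrichments and p-values are the authors' own values for each peak and describe or rank peaks within a list, so that a higher fold in one list does not show more m6A there. A scarce transcript and a missing mark cannot be told apart in these lists, nor can fewer cells of a kind and less RNA per cell. Intervals are exact binomial (Clopper-Pearson) 95% intervals, account for counting error alone. They are too narrow, since members on overlapping isoforms of a gene share bases. Of 10 markers of lung epithelium, 4 had a peak of any label in A549/DDP (KRT7, KRT8, KRT18 and MUC1) and 5 in A549 (the same and CDH1). A marker without a listed peak, such as NKX2-1, EPCAM or the surfactant genes, may still be expressed. Of 6 markers of blood, endothelium and fibroblasts, CD68 and COL1A1 had a peak in each list.

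In 15 genes with 1 start in the RefSeq table a member covered at least 99% of its listed transcript. Whether the RefSeq start itself lay within the peak was not checked. The first base at the RefSeq start was A in 8 of these genes, G in 4 and C in 3. The start sites of 6 of the 15, picked by hand to show each of these bases, are printed here. Each line holds 15 bases before and 15 bases from the RefSeq start on GRCh38.p14, which may differ from the start of the deposited transcript, and the capital marks the first transcribed base. The windows lie at chr19:18281608-18281637 (JUND, minus strand), chr11:535562-535591 (HRAS, minus), chr5:151758617-151758646 (ATOX1, minus), chr19:7629778-7629807 (PET100, plus), chr11:65122120-65122149 (FAU, minus) and chr22:23767958-23767987 (CHCHD10, minus).
JUND: caagtggcgcggcgcAggagccgccgccag
HRAS: gggcggggcgtgcgcAggcccgcccgagtc
ATOX1: cactctcggaagcgcAgccgaacccgccct
PET100: tcttgctggagggtcGgctttgggcggaac
FAU: cgccctcgcttcttcCtctttctcgactcc
CHCHD10: cgcccggggccccgcCttttttgcgccggc
JUND, HRAS and ATOX1 start with an adenosine, and the other 3 do not. FAU starts with a C in a run of pyrimidines, the known form of ribosomal protein starts. Of the 154 genes with a both-UTR peak in either list, 97 had 1 start in the RefSeq table. An A was the first base in 41 of these (42.3%, 32.3 to 52.7), against 45.1% of 893 genes with another 5′ UTR peak and 44.3% of 22114 starts in the whole table. The letters GGAC, a common m6A context, occurred on the transcript strand within the first 50 bases in 16 of the 97 (16.5%, 9.73 to 25.4), against 22.8% of the 893 genes with another 5′ UTR peak and 18.7% of all starts. The intervals of both shares held these values, and a match is not a mapped site.

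Both-UTR peaks were a small class of long, spliced peaks on short messages. They made up 0.736% of the A549/DDP peaks (0.645 to 0.836) and 0.655% of the A549 peaks (0.563 to 0.758). When overlapping peaks of a list were merged into regions with united labels, 1.25% of regions held both UTR labels in A549/DDP (1.06 to 1.46). In A549 it was 1.28% (1.07 to 1.51). These shares also count regions without a both-UTR peak, whose UTR labels came from different peaks. A both-UTR peak lay in 114 of 12441 regions in A549/DDP and in 92 of 10733 in A549. Every member also carried the coding label. For 234 of 236 members in A549/DDP and 177 of 179 in A549, both UTR labels stood on 1 transcript row, so that such a peak spanned the coding sequence of that transcript. Members covered a median of 742.5 exonic bases in A549/DDP and 736 in A549, while all other peaks covered 210 in each list, a difference that follows in part from the rule. The shortest covered 143 bases (RPL36A, a ribosomal protein gene, in A549/DDP) and 157 (TBCA, a tubulin chaperone gene, in A549). The longest covered 2965 bases in A549/DDP (PPP1R9B, which encodes the actin-binding protein spinophilin) and 3171 in A549 (SOX4, a transcription factor gene). Members had a median of 3 exon blocks in each list, and 10.6% in A549/DDP and 15.1% in A549 were a single block, against 67.4% and 69.0% of the other peaks.

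The transcripts that carried members were short. Their median length was 1129.5 bases in A549/DDP and 1034 in A549. Other peaks lay on transcripts with median lengths of 2821 and 2709 bases. A member covered a median of 65.3% of its transcript in A549/DDP and 65.0% in A549, whereas other peaks covered 8.30% and 8.74%. At least 90% of the transcript lay within the peak for 52 members in A549/DDP and 44 in A549. The share of peak rows labelled with both UTRs was 2.39% in A549/DDP and 2.62% in A549 on transcripts of up to 600 bases. It was 1.85% and 1.64% on transcripts of 1001 to 1500 bases and 0.241% and 0.146% on those over 2500 bases. The intervals of the lines overlapped in every length class.

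**Figure D1:**
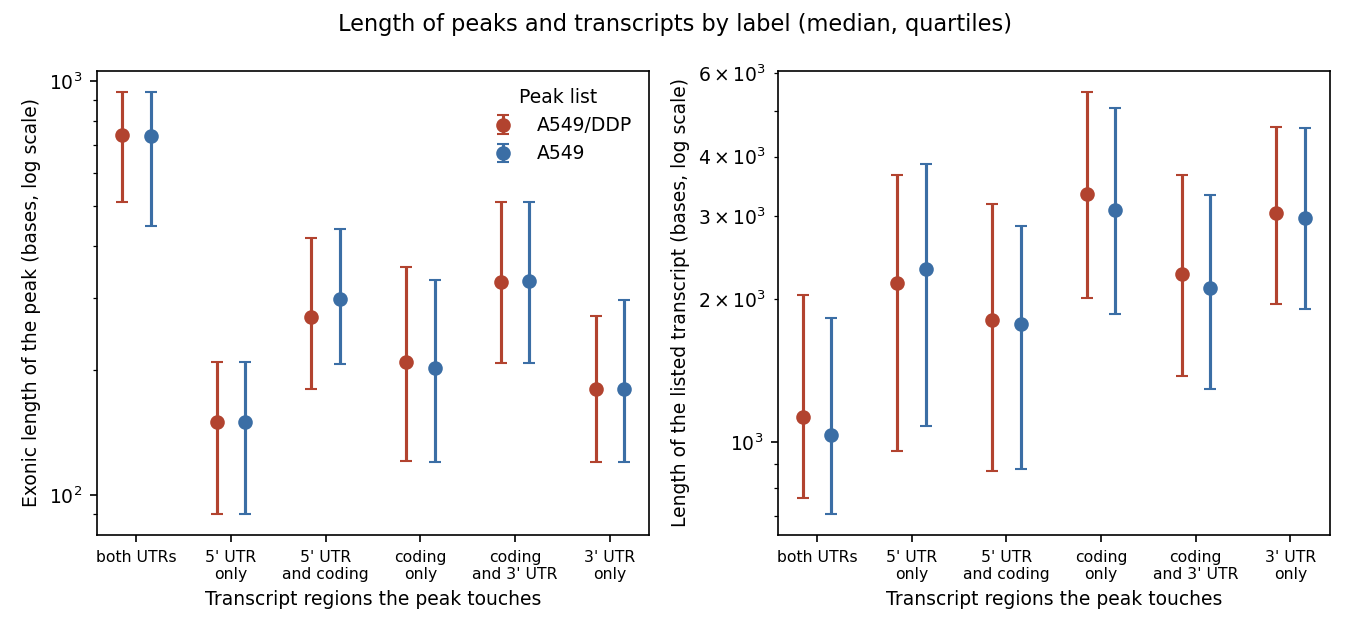
Median and quartiles of the exonic length of peaks (left) and of the length of their listed transcripts (right), in bases on log scales, for each set of transcript regions a peak touches, in A549/DDP (red) and A549 (blue). Both-UTR peaks are the longest class, at medians of 742.5 and 736 bases, and lie on the shortest transcripts, at medians of 1129.5 and 1034 bases. Both traits follow in part from the rule, since such a peak must span the coding sequence.

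**Figure D2:**
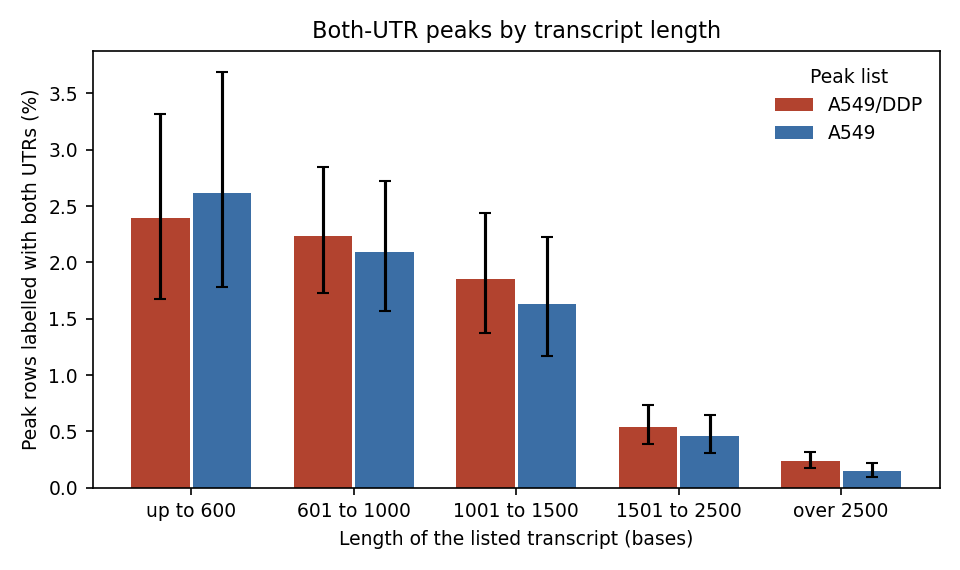
Percent of peak rows labelled with both UTRs by length of the listed transcript in bases, in A549/DDP (red) and A549 (blue), with exact 95% binomial intervals that cover counting error only. The share is 2.39% and 2.62% on transcripts of up to 600 bases and 0.241% and 0.146% on those over 2500 bases. On a short transcript a shorter peak can reach both UTRs.

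Some members lay on short transcript models of long genes. Of the 154 genes, 123 had peaks listed on several transcripts, and for 32 genes the longest transcript with a both-UTR peak was under 50% of the longest transcript listed. TBCA had its member on a transcript of 157 bases, while its longest listed transcript had 2301. ACTN1, which encodes the actin crosslinker alpha-actinin, had its member on a transcript of 605 bases out of up to 3779, and WWOX, an oxidoreductase gene, on 525 bases out of up to 2482. MXRA7 had members on transcripts of 521 to 560 bases, against 5661 for its longest. FAU, NNMT and ATPIF1 were also among these 32 genes. For 91 genes, 60 of them with several transcripts listed, a both-UTR peak lay on the longest transcript listed. The lists do not show which isoform was sequenced.

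By p, members were among the stronger peaks of their list. Their median p was 4.60e-53 in A549/DDP, against 6.46e-08 for all other peaks, and the median member ranked above 90.9% of the list by p. In A549 these values were 2.51e-53, 1.05e-07 and 92.4%. Members were also longer than other peaks, and the part of length in these p-values was not tested. The median fold was 5.89 in A549/DDP, with members between 1.68 (FAU) and 128 (PTMS), and 4.32 in A549, with members between 1.54 (MT2A) and 48.6 (SOX12). Peaks that touched only the 5′ UTR had medians of 5.57 in A549/DDP and 5.51 in A549, and coding peaks had 3.56 and 3.49. Peaks of the 5′ UTR and coding sequence had 5.415 and 4.24, close to the members. Those of the coding sequence and 3′ UTR had 4.2 in A549/DDP and 3.96 in A549. A fold of at least 5 was listed for 144 members in A549/DDP (61.0%, 54.5 to 67.3), against 34.9% of all peaks of that list. In A549 it was listed for 82 members (45.8%, 38.4 to 53.4), against 33.9% of all peaks. Other classes that touch the 5′ UTR had high shares too. For peaks of the 5′ UTR and coding sequence the share was 54.5% in A549/DDP (52.6 to 56.4) and 41.6% in A549 (39.0 to 44.3). For peaks of the 5′ UTR alone it was 55.2% in A549/DDP (52.6 to 57.8) and 54.2% in A549 (50.5 to 57.9), in A549 above that of the members. Among peaks of the coding sequence and 3′ UTR it was 38.9% in A549/DDP and 36.4% in A549.

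By gene, 116 of the 7026 genes with any peak in A549/DDP (1.65%) and 95 of 6450 in A549 (1.47%) had a both-UTR peak, and 57 had one in both lists. Over both lists these were 154 of 7952 genes (1.94%, 1.65 to 2.26). There was 1 member in 68 of the A549/DDP genes and in 62 of the A549 genes, and more than 3 in 14 and 13. FAM195B (now MCRIP1) had 10 members in each list, and TNNT1, a troponin T gene, had 8 in each. PGRMC2, a progesterone receptor membrane component gene, had 6 in A549/DDP and 5 in A549, MRPL52 had 3 and 6, and the nuclear pore gene NUP62 had 2 and 7. BDNF, a neurotrophin gene whose many transcripts join alternative 5′ exons to a shared coding exon, had 15 in A549/DDP and 0 in A549. Every listed peak was a both-UTR peak in 28 genes of A549/DDP and 27 of A549. After overlapping peaks were joined, members fell into 114 regions in A549/DDP and 92 in A549. In 81 and 64 of these regions there were peaks with other labels as well, most often across the stop codon (54 and 45 regions). Regions were joined without regard to gene, so that such peaks can belong to other isoforms or to overlapping genes.

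The 10 genes whose both-UTR peaks ranked highest by fold in both lists were led by PTMS, YBX1 and CEBPB. PTMS, which encodes the acidic protein parathymosin, had a fold of 128 in A549/DDP at a peak over all 773 bases of a listed transcript (chromosome 12, 6875541 to 6879664) and of 30.6 in A549 over all 1139 bases of another (6875543 to 6880109). The p of both was listed as 0. YBX1, which encodes a Y-box protein that binds messenger RNA, had folds of 65.5 in A549/DDP and 45.0 in A549 from the same first base (chromosome 1, 43148098), ending at 43167753 in A549/DDP and 43167723 in A549. CEBPB, a leucine zipper transcription factor gene without introns, had a fold of 58.8 in A549/DDP, where the peak took 1807 of 1837 bases (chromosome 20, 48807406 to 48809212), and of 35.8 in A549, where it began later and took 1719 (48807494 to 48809212).

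SOX12, which encodes a transcription factor of the SOX family, had folds of 35.7 in A549/DDP (chromosome 20, 306299 to 308000) and 48.6 in A549 (306523 to 308076), the highest of the members in A549. HEXIM1, an inhibitor of the elongation factor P-TEFb, had folds of 30.3 and 24.0 at peaks of 2004 bases in A549/DDP (chromosome 17, 43225820 to 43227823) and 1974 in A549 (43225850 to 43227823). PHF23, a PHD finger gene, had folds of 17.0 in A549/DDP and 28.1 in A549 at peaks of 1797 and 1767 bases (chromosome 17, from 7138587). HMGN2, which encodes a nucleosome-binding protein, had folds of 61.0 in A549/DDP and 10.7 in A549 from the same first base (chromosome 1, 26799010). The list was completed by LYPD1 (folds of 27.0 in A549/DDP and 10.7 in A549), MXRA7 (16.4 and 11.4) and the leucine zipper gene CREBZF (14.3 and 26.2). In these 10 genes the peaks of the lines overlapped, and at least 82.6% of the bases of the A549/DDP peak lay within A549 peaks.

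**Figure D3:**
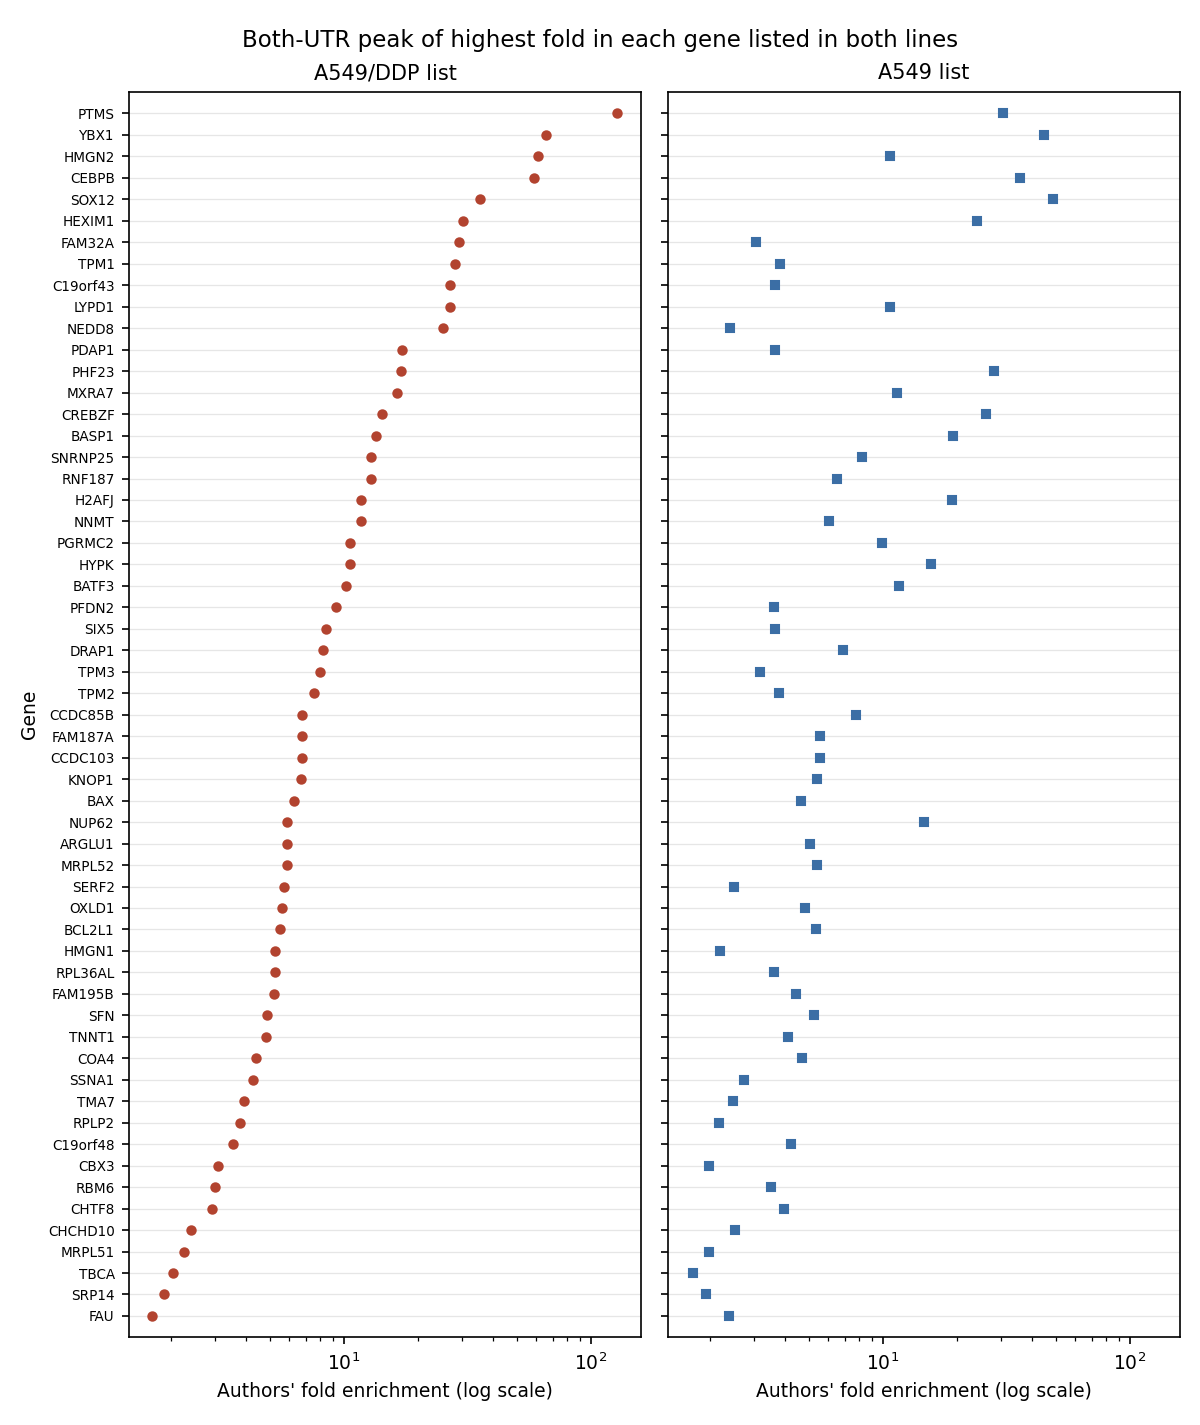
Authors' fold enrichment (log scale) of the both-UTR peak of highest fold in each of the 57 genes that had such a peak in both lists, in A549/DDP (left) and A549 (right), with genes ordered by the A549/DDP fold. PTMS is highest in A549/DDP at 128 and SOX12 in A549 at 48.6, and folds describe a peak within its own list.

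TPM1, TPM2 and TPM3, which encode actin-binding tropomyosins, had members in both lists, with highest folds of 28.2, 7.59 and 8.03 in A549/DDP and 3.83, 3.79 and 3.18 in A549. TPM4 had 1 in A549/DDP alone (fold 5.69), so that all 4 tropomyosin genes were among the members, a group chosen after its values were seen. Of all genes with a peak, 1.94% were among the members. Of 5 HMGN genes, picked in the same way, HMGN1 and HMGN2 had members in both lists and HMGN4 in A549/DDP alone. NNMT, which encodes nicotinamide N-methyltransferase, had folds of 11.7 in A549/DDP, over all 511 bases of a transcript, and 6.05 in A549. SFN, which encodes 14-3-3 sigma, had the same 1285 bases listed in each line (chromosome 1, 27189663 to 27190947, folds 4.89 in A549/DDP and 5.24 in A549). CHCHD10, a mitochondrial protein gene, and FAU, a ribosomal protein gene, also had members at identical positions in both lists. These covered all of short listed transcripts of 384 and 355 bases, while the longest listed transcripts of these genes had 1171 and 1125. FAU had folds of 1.68 in A549/DDP and 2.38 in A549, the lowest of any member in A549/DDP. In total 29 members had the same position and blocks in both lists. How often this held for peaks of any label was not computed.

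The pair CCDC103 and FAM187A went against the reading of a both-UTR peak as a whole message. Its member took its labels from transcripts of both genes, which overlap there. On chromosome 17 it spanned 42980077 to 42980464 with a fold of 6.74 in A549/DDP, and 42980107 to 42980285 with a fold of 5.55 in A549. CHTF8 was the other gene with labels united from several rows. These were the only 2 members of each list whose UTR labels did not share a row.

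The next question was what the other line held where a both-UTR peak lay. Counting an overlap of 1 or more exonic bases on the same strand, a peak of any label of the other list lay at 233 of the 236 A549/DDP members (98.7%, 96.3 to 99.7), against 67.2% of all A549/DDP peaks. In A549 this held for 168 of 179 members (93.9%, 89.3 to 96.9), against 78.0% of all A549 peaks. Among peaks of the 5′ UTR and coding sequence the shares were 65.3% in A549/DDP and 90.6% (88.9 to 92.1) in A549, and among peaks of the coding sequence and 3′ UTR they were 86.2% and 89.0%, so that in A549 the members' interval overlapped those of both classes. Members were longer than other peaks, and the part of length in these shares was not tested. With overlap required over at least 50% of the exonic bases of both peaks, the shares of members were 78.8% in A549/DDP and 83.8% in A549, against 50.6% and 59.3% of all peaks. The median share of a member's bases covered by peaks of the other list was 85.1% in A549/DDP and 96.9% in A549. This median was not computed for all peaks. A both-UTR peak of the other list lay at 120 members of A549/DDP (50.8%, 44.3 to 57.4), against 1.36% of all A549/DDP peaks, and at 117 of A549 (65.4%, 57.9 to 72.3), against 2.09% of all A549 peaks. The shares over all peaks include the members and are low in part because few regions of either list held a both-UTR peak.

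Most genes with a both-UTR peak in 1 list alone had peaks with other labels at the site in the other list. Among the 116 A549/DDP genes, 57 met a both-UTR peak in A549. Another 11 met separate A549 peaks touching each UTR, 32 met peaks that reached the 3′ UTR and not the 5′ UTR, 6 the reverse, 7 coding peaks alone and 3 no peak. Among the 95 A549 genes, 57 met a both-UTR peak in A549/DDP, 17 met separate peaks touching each UTR, 7 met peaks that reached the 3′ UTR alone, 8 the 5′ UTR alone, 0 coding peaks alone and 6 no peak. The difference between these splits was not tested. In the lists as a whole, 1444 peaks touched the 5′ UTR alone and 2692 the 5′ UTR and coding sequence in A549/DDP, against 718 and 1403 in A549, and the part of this in the splits was not tested.

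**Figure D4:**
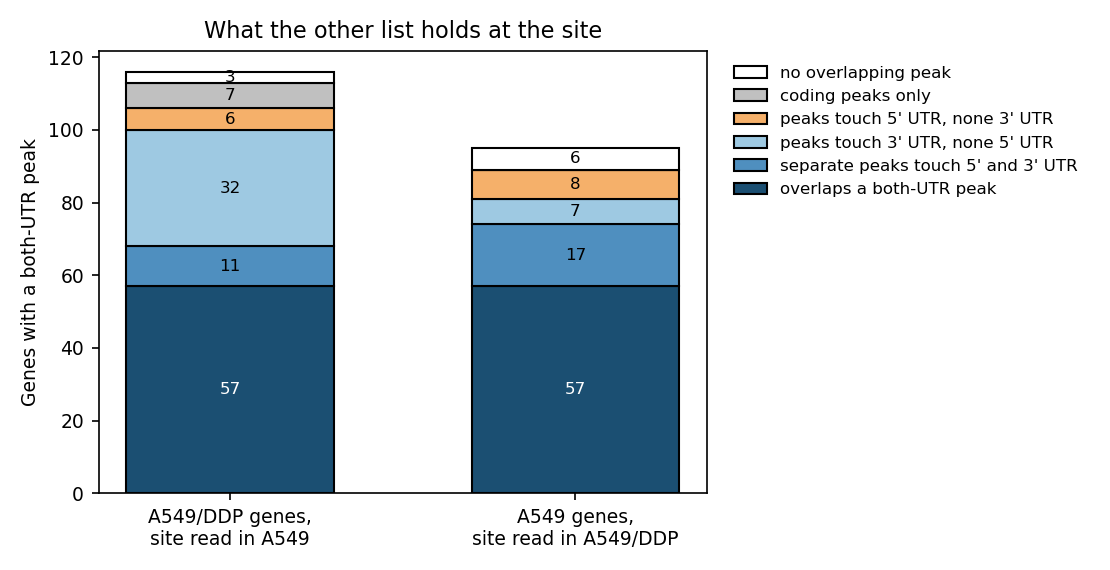
Number of genes with a both-UTR peak in A549/DDP (left bar) and A549 (right bar), stacked by what the other list holds at the site. Of 116 and 95 genes, 57 meet a both-UTR peak in the other list, 32 and 7 meet peaks that touch the 3′ UTR and not the 5′ UTR, and 3 and 6 meet no peak.

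In A549/DDP alone, 59 genes had a both-UTR peak, and 56 of them had a peak with another label in A549. Of all genes with a peak in A549/DDP, 78.6% had one in A549. CTXN1, which encodes the small membrane protein cortexin, had the highest fold, 75.1 over 947 bases (chromosome 19, 7989697 to 7991051), while its A549 peaks reached at most 621 bases and lay across the stop codon and in the 3′ UTR. PET100, a cytochrome c oxidase assembly gene whose start is printed above, had a fold of 25.8 over all 219 bases of a transcript (chromosome 19, 7694700 to 7696506), and its 3 A549 peaks lacked the 5′ UTR. BBC3, the proapoptotic p53 target PUMA, had a fold of 25.2 over 1541 of 1838 bases (chromosome 19, 47724351 to 47734421). Its 7 A549 peaks had at most 592 bases and folds of up to 7.60, and they covered 39.4% of the A549/DDP peak. CKAP4, which encodes an endoplasmic reticulum membrane protein, had a fold of 24.4 over 2082 bases (chromosome 12, 106632666 to 106641766), where A549 listed 4 shorter peaks. ATPIF1 (now ATP5IF1), the inhibitor of ATP synthase, had 19.9 over all 494 bases of a transcript (chromosome 1, 28562644 to 28564611), and its A549 peaks began in the coding sequence or later. SRSF4, a splicing factor gene, had 17.6 over 1208 bases, and ENY2, a transcription and mRNA export gene, had 17.6 over 680 bases. MSANTD3 had 21.1 and CMTM3 had 19.9.

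Other A549/DDP genes encoded transcription factors and regulators of cell death. JUND, an AP-1 subunit, had its whole transcript of 1870 bases in the peak (chromosome 19, 18390563 to 18392432, fold 14.7), and in A549 a peak of 1573 bases lacked the 5′ UTR (fold 11.8). FOSL1, another AP-1 subunit, had a fold of 7.04 over 1367 of 1427 bases, and KLF2, a zinc finger transcription factor gene, had 4.55. MCL1, an antiapoptotic member of the BCL2 family, had a fold of 8.26 over 1549 bases (chromosome 1, 150549385 to 150552036), and its A549 peaks had at most 630. NUFIP2, which encodes an RNA-binding partner of FMRP, had its member over 2728 bases (chromosome 17, 27590976 to 27621136, fold 7.67), and at this site A549 had coding peaks alone.

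ATOX1, the copper chaperone that hands copper to the export ATPases, had 6 members among its 7 A549/DDP peaks, with a highest fold of 8.21 (chromosome 5, 151125828 to 151131987). In A549 it had 4 peaks of at most 210 bases, all in the 3′ UTR, and they covered between 3.33% and 32.4% of the bases of these 6 members. The 15 BDNF members of A549/DDP had folds of up to 8.80, and the A549 peaks of BDNF lay in the coding sequence with at most 151 bases and folds of up to 9.91. These 15 peaks share the coding exon and count as 1 gene. Without BDNF the members made up 0.690% of the A549/DDP peaks, and 54.3% of them overlapped a both-UTR peak of A549. The X-linked genes TCEAL3 (fold 5.92), TCEAL4 (8.40) and WBP5 (now TCEAL9, 5.94) had members in A549/DDP alone. They were 3 of the 6 BEX and TCEAL genes with any peak, a family chosen after its values were seen. Of all 7952 genes with a peak in either list, 154 (1.94%) had a member in either list. GABARAPL2, an autophagy gene of the ATG8 family (fold 21.1, chromosome 16, 75600316 to 75611223), ANXA2R (7.24) and PPIL4 (3.58) had no listed peak in A549.

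In A549 alone, 38 genes had a both-UTR peak, and 33 of them had a peak with another label in A549/DDP. Of all genes with a peak in A549, 85.6% had one in A549/DDP. SOX4 had 5 peaks of at most 600 bases in A549/DDP with folds of up to 19.9, which covered 39.7% of its A549 member of 3171 bases, the A549-only member of highest fold at 42.1. SRXN1, which encodes the antioxidant enzyme sulfiredoxin, had 6 peaks of at most 330 bases in A549/DDP, some at the 5′ end and some in the 3′ UTR, with folds of up to 15.8, against a member of 840 bases with a fold of 19.0 in A549 (chromosome 20, 629057 to 633954). BTG1, an antiproliferative gene, had peaks of the 5′ UTR and coding sequence with folds of up to 9.12 in A549/DDP. These covered 92.3% of its A549 member of 777 bases (chromosome 12, 92537808 to 92539524, fold 17.0). CCDC124 had 5 peaks of at most 587 bases in A549/DDP and a member over all 938 bases of a transcript in A549 (fold 13.2). The other A549 genes of high fold were C4orf48 (14.5), CCDC167, WWOX, C17orf62 (now CYBC1, 13.6) and HDHD3 (11.9). MT2A, a metallothionein gene, had separate peaks at its 5′ and 3′ ends in A549/DDP and in A549 a member with a fold of 1.54, the lowest of the A549 list.

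The small GTPase genes with a both-UTR peak had it in A549 alone. They were 5 of the 72 with any peak (6.94%, 2.29 to 15.5), against 154 of all 7952 genes (1.94%), which split into 57 in both lists, 59 in A549/DDP alone and 38 in A549 alone. That difference was not tested. The 5 included HRAS, ARF6, RHOG and RHOB. HRAS, a proto-oncogene of the RAS family whose start is printed above, had 9 peaks of at most 412 bases in A549/DDP, at the 5′ end, across the stop codon and in the 3′ UTR, with folds of up to 22.3. In A549 all 5 of its listed peaks were members, with a highest fold of 17.6 over all 894 bases of a transcript (chromosome 11, 532376 to 535534). RHOB, which encodes a GTPase of the actin cytoskeleton, had peaks of 630 and 839 bases in A549/DDP, with folds of 5.79 and 5.24 and a gap within the coding sequence. In A549 it had 1 peak of 1737 bases across that gap (chromosome 2, 20646895 to 20648631, fold 5.13). ARF6, a membrane traffic GTPase gene, had peaks in the 5′ UTR and across the stop codon in A549/DDP, and 1 peak of 1463 bases in A549 (fold 6.00). RHOG had a member with a fold of 5.24. In these 4 genes between 67.7% and 84.5% of the bases of the A549 member of highest fold lay within A549/DDP peaks.

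**Figure D5:**
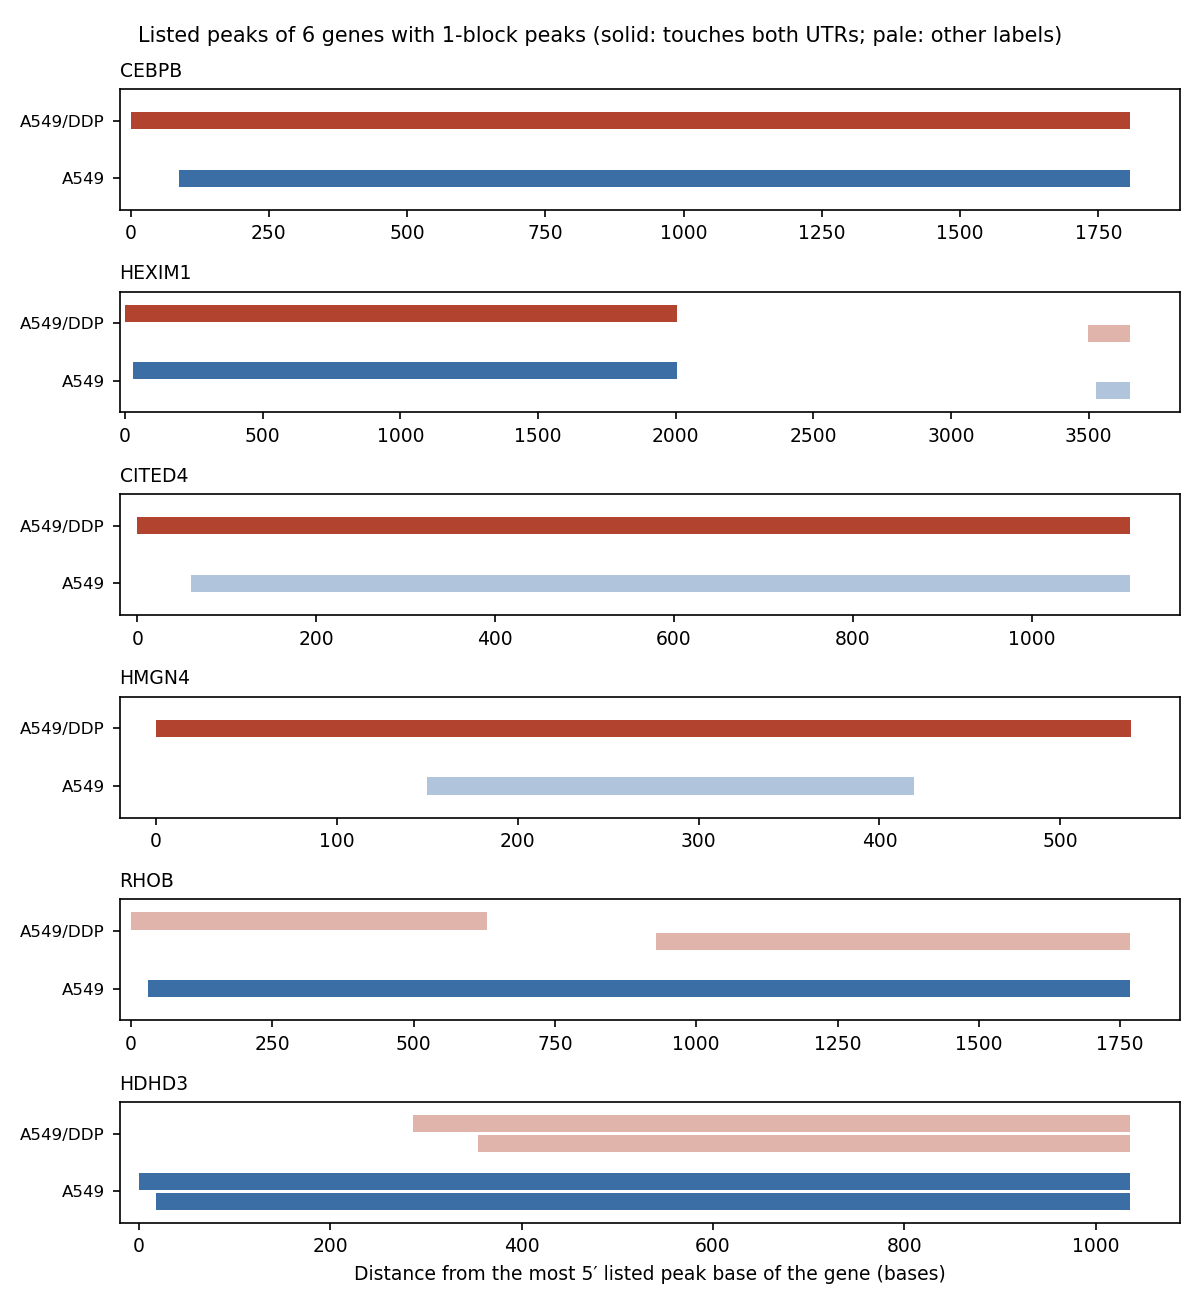
Listed peaks of 6 genes whose every peak is a single block, drawn to scale from the most 5′ peak base of the gene (x axis, bases), with A549/DDP above A549. Solid bars touch both UTRs and pale bars carry other labels: RHOB has peaks of 630 and 839 bases in A549/DDP and 1 of 1737 in A549, and HMGN4 has a peak of 539 bases in A549/DDP and of 269 in A549.

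The peak map shows how peaks with and without the label lay to each other. CITED4, a transcriptional coactivator gene, had 1110 bases in A549/DDP (fold 7.42), and its A549 peak of 1050 bases (fold 20.0) ended at the same 3′ base and missed the first 60. HDHD3 had at most 749 bases in A549/DDP and 1036 in A549, ending at the same base. HMGN4, which encodes a nucleosome-binding protein, had a peak of 539 bases in A549/DDP, and inside it lay the A549 peak of 269 bases.

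No peak of any label was listed in A549/DDP for 5 of the A549 genes. These were S100P, a calcium-binding protein gene (fold 3.82, chromosome 4, 6695628 to 6698896), C8orf4 (now TCIM, 8.17), FXYD2, a regulator of the sodium pump (5.29), CPLX2, which encodes the synaptic protein complexin (3.15), and PPP1R14A, an inhibitor of myosin phosphatase (4.08). The authors' p at these A549 peaks was 1e-214 for S100P, 1e-148 for C8orf4, 1e-76 for PPP1R14A, 1.58e-71 for CPLX2 and 2.00e-25 for FXYD2. The levels of these transcripts in A549/DDP are not given by the lists.

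The counts of the gene lists are small and are read against the 1.94% of all genes with a peak that had a both-UTR peak. Immediate-early and stress response genes had 5 of 54 (9.26%, 3.08 to 20.3), with CEBPB in both lists, FOSL1, JUND and KLF2 in A549/DDP alone and BTG1 in A549 alone. Genes of p53 targets and apoptosis had 4 of 38 (10.5%, 2.94 to 24.8). BAX, a proapoptotic effector, had folds of 6.26 in A549/DDP and 4.66 in A549 at peaks of 295 and 324 bases, and BCL2L1, which encodes BCL-XL, had folds of 5.51 and 5.38. BBC3 and MCL1 were listed in A549/DDP alone. Developmental transcription factor genes had 3 of 40, SIX5 and SOX12 in both lists and SOX4 in A549 alone. The 12 histone genes with a peak had 1, H2AFJ, with the same 745 bases in each line (folds 11.7 in A549/DDP and 19.0 in A549).

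Cytosolic ribosomal protein genes had 5 of 68 (7.35%, 2.43 to 16.3), namely FAU, RPL36AL and RPLP2 in both lists, RPL36A in A549/DDP alone and RPS19 in A549 alone. The RPS19 member lay on a patch contig and not on the chromosome itself, and ribosomal protein genes have many processed copies, so that these assignments are uncertain. Mitochondrial ribosomal protein genes had 2 of 59, MRPL51 and MRPL52 in both lists. NRF2, glutathione and metallothionein genes had 2 of 30, MT2A and SRXN1 in A549 alone. Chaperone and proteasome genes had 2 of 74, DNAJC8 in A549/DDP alone and HSPB1 in A549 alone. Platinum and drug transport genes had 1 of 11, ATOX1, and nuclear genes of the respiratory chain and ATP synthase had 1 of 53, ATPIF1. The 223 zinc finger genes with ZNF symbols had 1 (0.448%, 0.0114 to 2.47), ZNF286A in A549/DDP alone. DNA repair genes had 0 of 41, which allows a share of up to 8.60%, and the m6A writers, erasers and readers had 0 of 20, which allows up to 16.8%. The label went with transcript length, and the length of the transcripts was not compared between these gene lists.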

How the data were processed

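MeRIP-seq peak lists of A549/DDP and A549 were analysed, 1 list per line. The submitters' processing notes name HISAT2 and the build hg19. Not given in the sources used here are the peak caller and its cutoff, the scaling of libraries and the release of the annotation. The fold enrichment is a linear ratio deposited by the authors for each peak, and the p-value is likewise the authors' deposited value. No source says if it was adjusted.

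The 33465 rows of A549/DDP and 28601 of A549 were reduced to distinct peaks by position, strand and blocks, and labels were united over rows. Overlaps needed 1 or more exonic bases on the same strand (bedtools 2.31.1). Overlap code was checked on simulated data. Shares, medians and intervals were computed with Python 3.11.15, pandas 2.3.3, numpy 2.4.6 and scipy 1.17.1, and figures with matplotlib 3.10.9. Peak positions are on hg19, counted from 1. Of 7957 gene symbols, 7829 matched a RefSeq table of GRCh38.p14, from which names and start sequences were taken. The planned comparison of protein lengths and the sequences under the peaks were not analysed here.

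Depth is unknown, since the lists hold no counts, and no test between the lines was made. Members and gene lists were chosen with earlier results of these data known. Named genes were the 10 best by fold in both lists (by the worse rank, with p below the median of the list), 10 in each line alone, the 5 per list with most members or the largest covered share, members of the gene lists and pairs of overlapping genes. Other named genes were chosen after their values were seen. Where a gene has several members, its values are those of the member of highest fold. Alternatives were a fold of at least 5, equal numbers of peaks, merged regions, rows, both labels on 1 row, a stricter overlap, strand ignored and chromosomes 1 to 22 and X. Leaving out BDNF and taking 1 member per gene were added after seeing the data. 1 gene that is counted among the members is not reported here by name.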

Additional observations from a re-analysis of the deposited data

How the results depend on the processing

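At a fold of at least 5 the share of both-UTR peaks was 1.29% in A549/DDP and 0.886% in A549, the median fold was 8.49 and 9.49, and 27 genes had members in both lists and 24 in A549 alone. With that fold required in both lists, 68.8% and 87.8% of members overlapped a peak of the other list and 27.8% of A549/DDP members overlapped a both-UTR peak. The shares over all peaks at that fold were not computed, and the shares over all peaks given above are for the whole lists. The shares were 1.68% and 1.25% among the 13659 strongest peaks of each list by p. After merging they were 1.25% and 1.28% of regions, which also counts regions without a both-UTR peak. With at least 50% of the bases of both peaks required, 78.8% and 83.8% overlapped a peak of the other list. With 1 member per gene the median fold in A549/DDP was 7.04 and the median length in A549 was 619 bases, so genes with many isoforms weigh on these medians. These are the 17 alternative values that left the interval of the reported value (for counts of genes, that differed by over 1.5 times), and the other 67 did not. No paired analysis was possible because each line has 1 immunoprecipitated and 1 input library and no result comes from a test. No replicate could be left out. Without read counts, the lists do not separate a shorter peak from a peak read at lower depth.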
